A study of Mus musculus with 8 samples.

Results

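Genes of fatty acid oxidation in mitochondria and peroxisomes were compared between 2 groups of mice, labelled RictoraP2KO and control, in the perivascular fat of the thoracic aorta. A list of 34 genes was set out, and those that the array's annotation gave at least 1 probe set of their own were used, each by its brightest probe set (by the mean of all 8 arrays). This left 32 members of the 18782 genes measured, of which 19 act in mitochondria, 11 in peroxisomes, and 2 are acyl-CoA thioesterases of the cytosol or of mixed location. Cpt1b, the muscle form of the outer carnitine transferase, and Acadvl, the dehydrogenase for very long chains, were not analysed here, because the annotation names a second gene for their probe sets.

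Each group held 4 samples, 1 array each. In the mice labelled RictoraP2KO, Rictor, the subunit that defines mTOR complex 2, is deleted where the aP2 (Fabp4) promoter is active, per the series title in brain and fat; the control mice were Rictorfl/fl. All were males of 17 to 22 weeks, fasted overnight and killed at 9 am, so every value describes fasted tissue. The tissue was whole fat dissected from the thoracic aorta, and the labels do not say whether each sample was 1 animal, so the spread between samples may be partly technical. All values are log2 RMA signals, and differences are RictoraP2KO minus control with their standard error (SE).

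Fat is burned by removing carbon units from a fatty acyl-CoA in a repeated cycle of dehydrogenation, hydration, dehydrogenation and thiolysis. Carnitine transferases carry long chains into mitochondria, where acyl-CoA dehydrogenases pass electrons through the electron transfer flavoprotein to the respiratory chain. Peroxisomes shorten very long and branched chains with oxidases that make hydrogen peroxide, which catalase removes, and hand the products on as carnitine esters. Brown fat is rich in both systems, and PPAR receptors are known to induce many of these genes during fasting.

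Before the member values come some stretches of sequence, shown because they belong to members among those with the smallest and the largest spread between arrays described below. Promoter windows of RefSeq (build GRCm38.p6) were matched by symbol for 27 of the 32 members, in 29 windows, and only the 250 bases before each start were used. Hadha and Hadhb encode both subunits of the mitochondrial trifunctional protein. Their starts lay 273 bases apart on opposite strands, so that 228 bases (chr5:30155003-30155230, written on the plus strand, the strand of Hadhb) stood in both windows, with GGGCGG in capitals.
Hadha and Hadhb shared: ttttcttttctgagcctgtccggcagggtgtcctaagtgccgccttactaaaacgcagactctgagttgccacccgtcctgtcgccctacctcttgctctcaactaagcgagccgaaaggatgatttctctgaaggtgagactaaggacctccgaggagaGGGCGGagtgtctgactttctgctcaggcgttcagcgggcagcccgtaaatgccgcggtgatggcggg

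The members with the widest spread were Ehhadh, Acot1 and Acot2. Ehhadh lies on the minus strand (window chr16:21787835-21788084). Acot2 (chr12:83987611-83987860) and Acot1 (chr12:84009252-84009501) lie on the plus strand with starts 21641 bases apart. Capitals mark CCAAT or its reverse complement ATTGG.
Ehhadh: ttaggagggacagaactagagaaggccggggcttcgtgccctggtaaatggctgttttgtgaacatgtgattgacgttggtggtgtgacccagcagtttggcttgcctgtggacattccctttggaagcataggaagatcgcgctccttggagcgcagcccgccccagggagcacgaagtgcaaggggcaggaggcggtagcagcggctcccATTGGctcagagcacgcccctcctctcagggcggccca
Acot2: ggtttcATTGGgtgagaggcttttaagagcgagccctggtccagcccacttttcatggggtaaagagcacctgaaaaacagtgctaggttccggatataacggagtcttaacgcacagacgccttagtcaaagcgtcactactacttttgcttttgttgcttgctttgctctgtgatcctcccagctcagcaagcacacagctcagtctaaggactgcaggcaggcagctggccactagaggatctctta
Acot1: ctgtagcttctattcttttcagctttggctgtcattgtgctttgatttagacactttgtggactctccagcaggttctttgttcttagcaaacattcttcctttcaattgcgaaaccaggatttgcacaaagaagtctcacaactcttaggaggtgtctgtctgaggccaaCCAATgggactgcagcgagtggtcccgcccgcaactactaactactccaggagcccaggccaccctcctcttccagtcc

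A CCAAT stood in all 3 windows, at bases 38 to 34 before the start of Ehhadh, 79 to 75 before that of Acot1 and 244 to 240 before that of Acot2. Searched on both strands, CCAAT was in 13 of the 29 member windows (44.8%) and in 33.8% of the 32851 windows of all genes. GGGCGG was in 19 member windows (65.5%) against 32.7% of all. AGGTCA, a single site read by many nuclear receptors, was in 5 (17.2%) against 14% of all, in the windows of Acadm, Cat, Cpt1a, Echs1 and Ucp3. The palindrome CACGTG, read by clock activators, was in 1 (3.45%), that of Acot11, against 6.02% of all. Although Acot1 and Acot2 are close paralogs, a global alignment of their windows had 46.7% identical columns, and one of Acot1 with the unrelated Ehhadh 47.7%. These are matches of letters only.

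No fat oxidation gene passed the test between the groups. At a limma adjusted p under 0.05 the members called were 0 of 32, beside 0.00352% of all 28371 probe sets (1 probe set). At an unadjusted p under 0.05 they were also 0 of 32, beside 7.27% of all probe sets (3.85% higher and 3.42% lower), and in 0 members the groups did not overlap, beside 4.25%. The smallest unadjusted p was 0.0851 (limma adjusted p = 0.732). The differences lay between -0.27 and 0.36, with 13 members above 0, 19 below and a median of -0.01, equal at this precision to the median over all genes of -0.0080. Because this is whole tissue, fewer cells of a type and less RNA per cell cannot be told apart in any of these values.

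The intervals show how large a difference these 8 arrays leave possible. For 27 of the 32 members the 95% interval of the difference lay within 1.5-fold either way, and for 12 within 1.2-fold. Of those 12, 11 were mitochondrial and 1, Eci2, peroxisomal. The 5 members with wider intervals were Acot2, Ucp3, Ehhadh, Acot1 and Acot11. The plot of differences with their intervals shows these 5 apart from the rest.

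**Figure D1:**
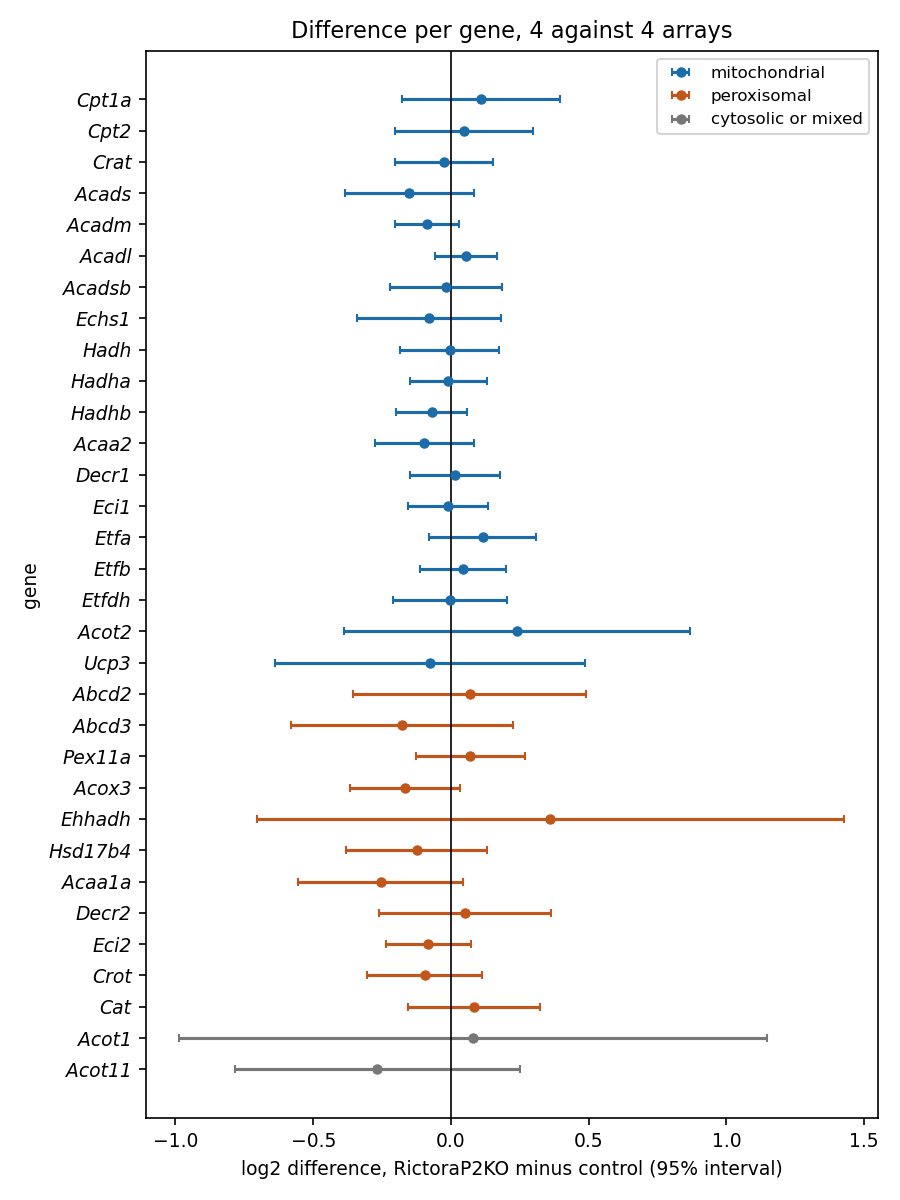
Difference of each member in log2 units, RictoraP2KO minus control, as points with 95% limma intervals (4 arrays per group), coloured by class. Every interval crosses 0, and those of Ehhadh and Acot1 are the widest, from -0.71 to 1.43 and from -0.99 to 1.15.

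Rictor itself, the targeted gene, read 6.80, 6.66, 6.60 and 6.68 in RictoraP2KO replicates 1 to 4 and 6.49, 6.56, 6.49 and 6.61 in control replicates 1 to 4, not lower in the arrays labelled RictoraP2KO (limma adjusted p = 0.685). Its difference was 0.145 (SE 0.063), with an interval from 0.0017 to 0.288. The unadjusted limma p was 0.0479, on the higher side. Where the probes lie relative to the deleted exons was not examined, so each direction rests on the labels. The tissue carried brown fat markers, with Ucp1 between 11.32 and 12.01, while Zic1 stood between 1.69 and 1.91, below the array median of 3.76. Arrays also differed in signal of other tissues, as mean centred log2 values of marker lists. Skeletal muscle markers (10 of 10 measured) reached 1.24 in RictoraP2KO replicate 2 and ran from -0.24 to -0.07 elsewhere. Lung markers (6 of 6) stood at 2.98 in control replicate 2 and from -0.60 to -0.28 elsewhere, and neuron markers (8 of 8) at 1.30 in control replicate 3 and from -0.31 to -0.08 elsewhere. Cardiac muscle markers (8 of 9) ran from -1.16 to 1.44 in RictoraP2KO arrays and from -0.69 to 0.60 in control arrays. Liver markers ran from -0.14 to 0.08, smooth muscle markers from -0.59 to 0.48, B cell markers from -0.56 to 1.20 and macrophage markers from -0.33 to 0.41 over the 8 arrays.

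The carnitine transferases counted here as mitochondrial had 3 measured members, of which Cpt1a and Cpt2 bring long chains into mitochondria. Cpt1a, the rate-limiting transferase of the outer membrane, differed by 0.11 (SE 0.126), Cpt2, its partner of the inner membrane, by 0.05 (SE 0.110), and Crat, which acts on short chains, by -0.02 (SE 0.078). Their intervals lay within 1.5-fold. Slc25a20, the carrier that swaps carnitine for acylcarnitine between these enzymes and no member of the list, differed by -0.11 (SE 0.082).

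Among the acyl-CoA dehydrogenases, which open each round of oxidation, the medium-chain enzyme had the smallest p of all mitochondrial members. Acadm read 11.30, 11.26, 11.33 and 11.34 in RictoraP2KO replicates 1 to 4 and 11.42, 11.42, 11.34 and 11.40 in control replicates 1 to 4. The groups met at 11.34, the highest value of one and the lowest of the other. Acadm differed by -0.09 (SE 0.052; limma adjusted p = 0.767), with an interval from -0.20 to 0.03. The long-chain enzyme gene Acadl read 10.78, 10.83, 10.81 and 10.82 in the RictoraP2KO arrays against 10.76, 10.79, 10.72 and 10.75 in the control arrays. It differed the other way, by 0.06 (SE 0.049). The short-chain enzyme gene Acads read 8.98, 8.81, 9.18 and 9.07 against 9.25, 9.18, 8.93 and 9.28. Control replicate 3 lay among the RictoraP2KO values, and the difference was -0.15 (SE 0.104; limma adjusted p = 0.789). Without that array Acads differed by -0.23 at an unadjusted limma p of 0.0438 (adjusted p = 0.715), and without RictoraP2KO replicate 2 by -0.08. Acadsb, for short branched chains, differed by -0.02 (SE 0.090).

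The enzymes that complete each round were all slightly below 0, and none passed. The 5 differences ran from -0.10 for Acaa2, the thiolase, to -0.0050 for Hadh, the short-chain hydroxyacyl-CoA dehydrogenase, with a median of -0.07. Echs1, the short-chain hydratase, stood at -0.08 (SE 0.115). Hadha and Hadhb, whose promoter windows share the stretch printed above, stood at -0.01 (SE 0.062) and -0.07 (SE 0.057). Hadhb had a second probe set, which gave -0.05. Decr1 and Eci1, which prepare double bonds of unsaturated chains for the cycle, differed by 0.01 and -0.01, with both intervals within 1.2-fold.

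The electron transfer genes pass electrons from the dehydrogenases to ubiquinone. Etfa, the alpha subunit of the flavoprotein, read 10.02, 9.77, 9.73 and 9.69 in the RictoraP2KO arrays against 9.62, 9.79, 9.60 and 9.73 in the control arrays. RictoraP2KO replicate 1 was the highest and the other 7 overlapped. Etfa differed by 0.12 (SE 0.086; limma adjusted p = 0.798), or by 0.04 without that array. Etfb, the beta subunit, differed by 0.04 (SE 0.069) and Etfdh, the ubiquinone reductase, by -0.0025 (SE 0.091).

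Ucp3, a carrier of the inner membrane that rises with fatty acid supply in muscle and brown fat, read 7.84, 8.67, 9.04 and 8.99 in the RictoraP2KO arrays. It read 8.50, 8.89, 8.88 and 8.58 in the control arrays. RictoraP2KO replicate 1 was the lowest of all 8 and replicates 3 and 4 the highest. The difference was -0.08 (SE 0.248), and it was 0.19 without RictoraP2KO replicate 1. In RictoraP2KO replicate 2, whose skeletal muscle markers were highest, Ucp3 lay between the values of the other arrays.

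**Figure D2:**
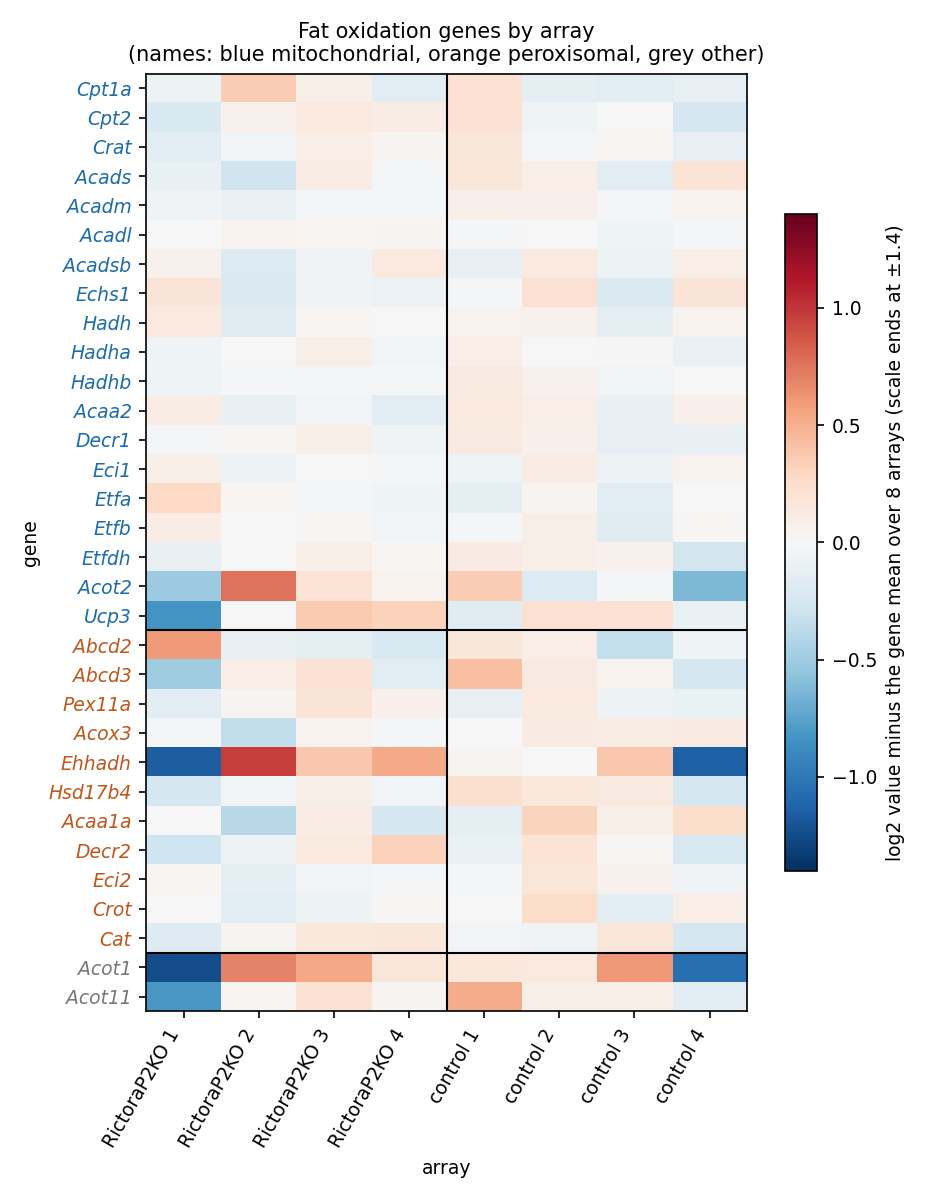
Heat map of the 32 members (rows) in the 8 arrays (columns), as log2 value minus the gene's mean over the 8 arrays, grouped by class. Most rows are pale, and Ehhadh, Acot1, Acot2, Acot11 and Ucp3 stand out, with low values in RictoraP2KO replicate 1.

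Peroxisomal members were 5 above and 6 below 0, with a median of -0.08, against 7 above and 12 below with a median of -0.01 for the mitochondrial ones. Of the import genes, Abcd3, the main transporter of acyl-CoA into peroxisomes, differed by -0.18 (SE 0.178) and Abcd2, its relative for very long chains, by 0.07 (SE 0.187). Abcd2 read 9.13 in RictoraP2KO replicate 1, where the other 7 arrays lay between 8.20 and 8.69, and its difference was -0.12 without that array and -0.03 without control replicate 3. Pex11a, which promotes peroxisome division, differed by 0.07 (SE 0.088). Neither import nor division genes passed.

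The thiolase and the oxidase had the smallest p of all members, both lower in the arrays labelled RictoraP2KO, and neither passed. Acaa1a, the peroxisomal thiolase, read 5.88, 5.49, 5.99 and 5.64 in the RictoraP2KO arrays against 5.75, 6.19, 5.97 and 6.12 in the control arrays. Control replicates 1 and 3 lay inside the RictoraP2KO range. Acaa1a differed by -0.26 (SE 0.132; limma adjusted p = 0.732). The unadjusted limma p was 0.0361 without RictoraP2KO replicate 3 and 0.0273 without control replicate 1. The difference of Acaa1a was -0.17 without RictoraP2KO replicate 2, the array with the muscle signal, and -0.10 without the 3 arrays that carried muscle, lung and neuron signal.

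Acox3, an oxidase of branched chains, read 7.05, 6.74, 7.12 and 7.06 against 7.08, 7.19, 7.18 and 7.18. RictoraP2KO replicate 2 was the lowest. The difference was -0.17 (SE 0.088; limma adjusted p = 0.741). Without that array it was -0.08 and without the 3 arrays -0.05. The other probe set of Acox3, with a mean below the array median, gave -0.02. The part of muscle, lung and neuron signal in the values of Acaa1a and Acox3 was not tested further.

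Hsd17b4, the multifunctional enzyme for branched and very long chains, differed by -0.12 (SE 0.113). Without control replicate 4 the difference was -0.23 at an unadjusted limma p of 0.0297 (adjusted p = 0.796). Its counterpart Ehhadh, the multifunctional enzyme that also serves dicarboxylic acids, read 8.92, 11.04, 10.46 and 10.61 in RictoraP2KO replicates 1 to 4 and 10.12, 10.08, 10.45 and 8.94 in control replicates 1 to 4. Its lowest values, 8.92 and 8.94, came from 1 array of each group, and it spanned 4.34-fold over the 8 arrays. Ehhadh differed by 0.36 (SE 0.470; limma adjusted p = 0.886). Without RictoraP2KO replicate 1 it was 0.81 at an unadjusted p of 0.0438 (limma adjusted p = 0.662), without RictoraP2KO replicate 2 it was 0.10 and without control replicate 4 it was 0.04.

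The remaining peroxisomal members differed little. Eci2, an isomerase for double bonds found in both organelles, read 8.20, 8.04, 8.13 and 8.14 against 8.14, 8.34, 8.23 and 8.12, with overlap between the groups. It differed by -0.08 (SE 0.068; limma adjusted p = 0.822). Decr2, the peroxisomal reductase for double bonds, differed by 0.05 (SE 0.138). Crot, which makes the carnitine esters that leave the peroxisome, differed by -0.10 (SE 0.092), and Cat, catalase, by 0.08 (SE 0.106).

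With all members included, neither class mean stood apart from the other in its group difference. That difference was -0.00036 for the mean of the mitochondrial members and -0.02 for that of the peroxisomal members. The mean of the 19 mitochondrial members, each gene centred on its mean over the 8 arrays, was -0.07, 0.0056, 0.06 and 0.0013 in RictoraP2KO replicates 1 to 4 and 0.07, 0.05, -0.06 and -0.05 in control replicates 1 to 4. The mean of the 11 peroxisomal members was -0.17, -0.0090, 0.09 and 0.04 against 0.04, 0.14, 0.04 and -0.17. The groups overlapped in both classes. The mitochondrial mean minus the peroxisomal mean was 0.01 ± 0.07 (SD, n = 4) in the RictoraP2KO arrays and -0.01 ± 0.10 (SD, n = 4) in the control arrays, a difference of 0.02, smaller than either SD. This value is given without a test, because the members were chosen with results of these data known. The peroxisomal mean held Ehhadh, whose difference was 0.36 (SE 0.470), while the median difference of that class was -0.08. Ehhadh therefore drew the peroxisomal mean up toward the mitochondrial one, and the comparison with the SD is given only with Ehhadh included. How far Ehhadh sets the class difference was not tested. Per array the mitochondrial minus peroxisomal value was highest in RictoraP2KO replicate 1 (0.11) and control replicate 4 (0.11). So, with Ehhadh included, 1 array of each group had the lowest peroxisomal value beside its mitochondrial one. Ehhadh, 1 of the 11 peroxisomal members, was itself lowest in these arrays, at 8.92 and 8.94. No class mean was made without Ehhadh, so its part in this pattern was not tested and the pattern cannot be read as one of the class. The group difference of 0.02 ran from -0.0077 to 0.07 when each array was left out in turn. It was -0.059 without the 3 arrays that carried muscle, lung and neuron signal.

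**Figure D3:**
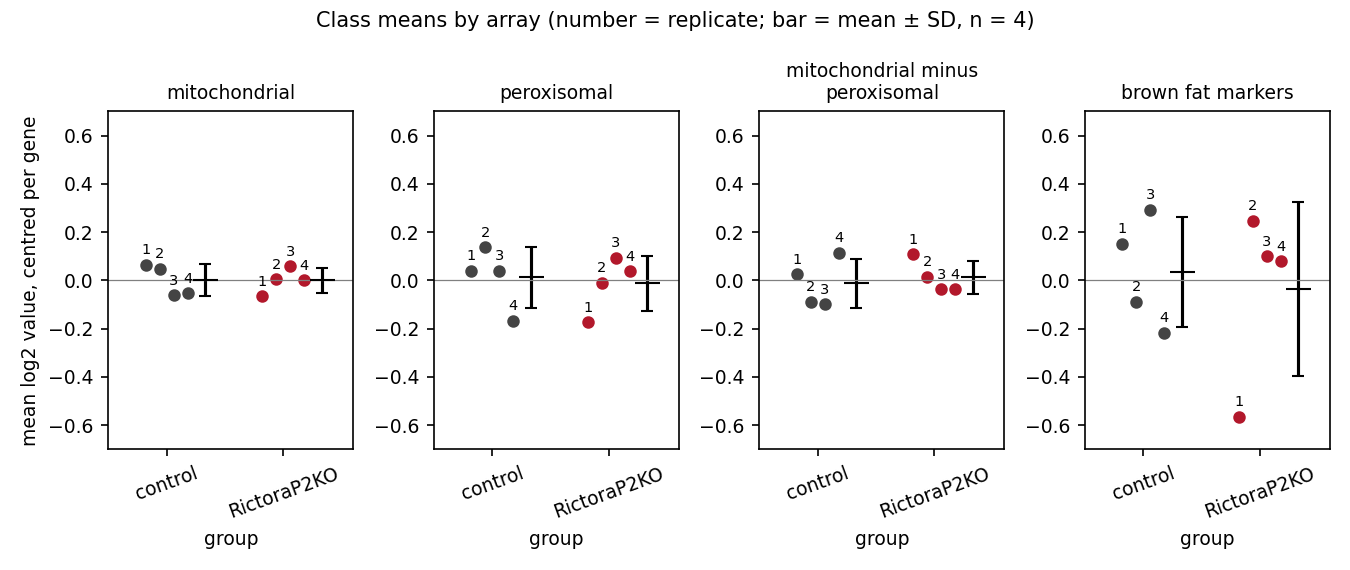
Mean centred log2 value per array for mitochondrial members, peroxisomal members, their difference and 8 brown fat markers, by group; numbers are replicates and bars are mean ± SD (n = 4). The groups overlap in every panel, and RictoraP2KO replicate 1 and control replicate 4 are lowest for peroxisomal members and for the brown fat mean, where control replicate 4 lies above control replicate 2 once Elovl3 is left out. The peroxisomal mean includes Ehhadh, which is itself lowest in RictoraP2KO replicate 1 and control replicate 4.

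The members differed widely in how much they varied between arrays of 1 group. The within-group SD (pooled over both groups) ran from 0.025 for Acadl and 0.037 for Acadm to 0.80 for Ehhadh and Acot1. Among the 10411 genes with a mean above the array median, the SD had quartiles of 0.111 and 0.226 and a median of 0.158. Of the mitochondrial members 10 of 19 lay under the lower quartile and 2, Acot2 and Ucp3, over the upper one. Of the peroxisomal members 1 of 11, Eci2, lay under it and 3, Abcd2, Abcd3 and Ehhadh, over the upper one. The class medians were 0.110 and 0.176. Over the 8 arrays Acadl spanned 1.08-fold, 23 of the 32 members under 1.5-fold, and 5 members 2-fold or more. This split by class was noticed in these values and has no test. Neither the classes nor the reference genes were matched for signal level, so the split cannot be read as a trait of the class.

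**Figure D4:**
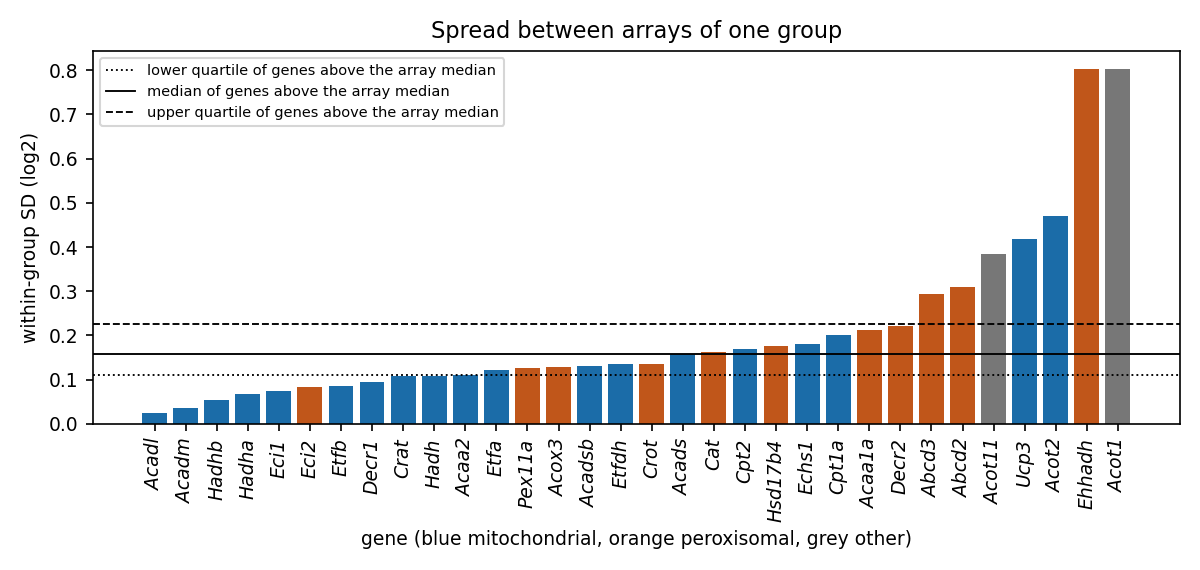
Within-group SD of each member on the log2 scale as bars coloured by class, with lines at the quartiles and median of 10411 genes above the array median. Acadl and Acadm sit at the left and Ehhadh and Acot1, both at 0.80, at the right. The classes mix between them, with peroxisomal Eci2 at 0.084 and mitochondrial Echs1 at 0.180.

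The thioesterases release free fatty acids from acyl-CoA, Acot2 in mitochondria and its paralog Acot1 in the cytosol. Acot1 read 4.18, 6.12, 5.96 and 5.59 in the RictoraP2KO arrays and 5.57, 5.57, 6.03 and 4.36 in the control arrays. Acot2 read 10.04, 11.31, 10.74 and 10.60 against 10.91, 10.36, 10.54 and 9.92. Both were lowest in RictoraP2KO replicate 1 and control replicate 4, the arrays with the lowest Ehhadh, and highest in RictoraP2KO replicate 2. These paralogs are closely similar in coding sequence, so probes of one may read the other, which was not tested. The differences were 0.08 (SE 0.471) for Acot1 and 0.24 (SE 0.277) for Acot2. With 1 array left out Acot2 differed by 0.03 (without RictoraP2KO replicate 2), 0.07 (without control replicate 4), 0.40 (without control replicate 1) and 0.45 (without RictoraP2KO replicate 1), and by 0.22 to 0.28 otherwise. Acot1 ran from -0.26 without control replicate 4 to 0.51 without RictoraP2KO replicate 1. Acot11, a thioesterase induced by cold in brown fat, read 7.18 in RictoraP2KO replicate 1 and 7.84 to 8.52 in the other 7 arrays. It differed by -0.27 (SE 0.228), by -0.04 without that array and by -0.14 without control replicate 1.

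The mean of the brown fat markers (8 of 8 measured) was also lowest in these 2 arrays, but for control replicate 4 this rested on Elovl3. The mean centred value was -0.56 in RictoraP2KO replicate 1 and -0.22 in control replicate 4. The other 6 arrays ran from -0.09 to 0.29. Without Elovl3, a choice made after seeing the data, the other 7 markers gave -0.25 in RictoraP2KO replicate 1, still the lowest, and -0.06 in control replicate 4, above control replicate 2 at -0.11. Of the 8 markers 3 had their lowest values in this pair of arrays, namely Elovl3, Ucp1 and Prdm16, and 5 did not. Elovl3, an elongase of brown fat that is known to vary with cold, read 6.84, 10.75, 9.96 and 10.38 in the RictoraP2KO arrays and 10.35, 9.64, 10.59 and 8.29 in the control arrays, the same arrays being lowest. Ucp1, which uncouples respiration for heat, was lowest there too, at 11.42 and 11.32, as was Prdm16, a brown fat regulator, at 6.12 and 6.30. Dio2, which activates thyroid hormone, read 7.47 in RictoraP2KO replicate 1 but 8.55 in control replicate 4, the third highest value, and was lowest in control replicate 2 at 7.02. Cox7a1, a subunit of cytochrome oxidase, read 11.23 in control replicate 4, the second highest value, and was lowest in RictoraP2KO replicate 2 at 10.99. Cox8b and Cidea, other brown fat markers, spanned 0.17 and 0.21 over the 8 arrays and were lowest in RictoraP2KO replicate 2. Lep, which is high in white fat, read 5.81 in RictoraP2KO replicate 1, where no other array exceeded 3.76. The part of these markers in the member values was not tested.

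**Figure D5:**
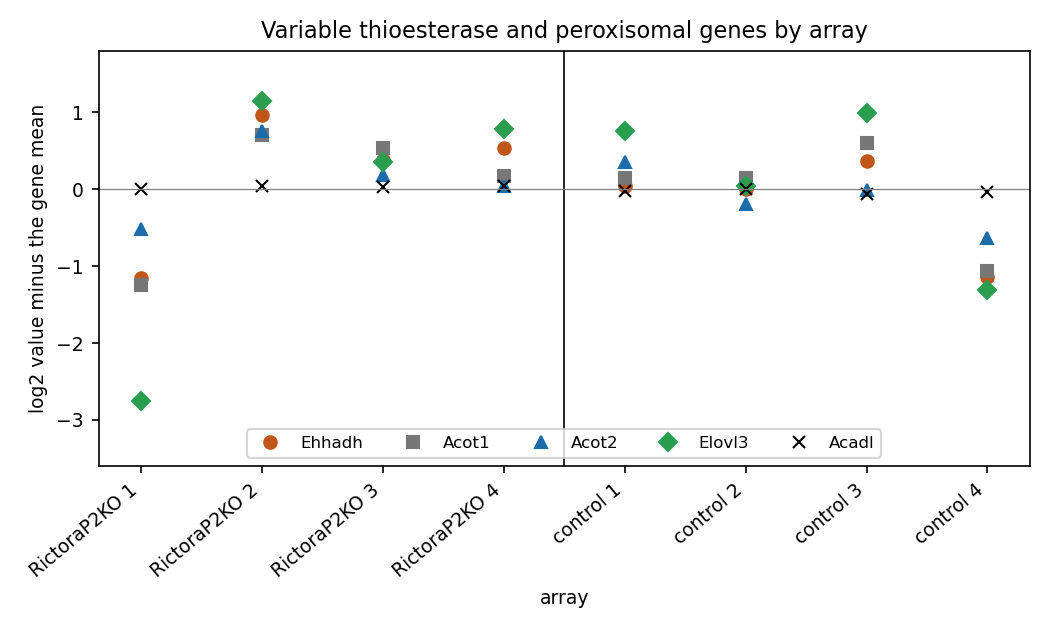
Log2 value minus the gene's mean in each array for Ehhadh, Acot1, Acot2, the brown fat gene Elovl3 and, for scale, Acadl. All but Acadl are lowest in RictoraP2KO replicate 1 and control replicate 4, and Acadl spans 0.11.

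Other genes of the pathway came from lists that held no member, and none passed the adjusted threshold. Of 24 further genes measured from a list headed mitochondrial (26 listed), 5 were above and 19 below 0 with a median of -0.11. Over all genes 9996 of 18782 were below 0, with a median of -0.008. In this list 0 genes passed at either threshold. Its mean per array overlapped between the groups, at -0.142 to 0.024 in RictoraP2KO arrays and -0.0099 to 0.112 in control arrays. Genes read on the same arrays are not replicates, so the split of signs has no test. Their smallest p belonged to Pccb, a subunit of propionyl-CoA carboxylase (-0.14, SE 0.065), Acot13, a thioesterase (-0.18, SE 0.089), and Acot9, another (-0.21, SE 0.101). Not every gene of this list encodes a mitochondrial enzyme of fat oxidation. It also held Acacb, a carboxylase, and Fabp3, a fatty acid binding protein with the list's largest difference (-0.60, SE 0.350). Of 21 further peroxisomal genes (25 listed), 12 were above and 9 below 0 with a median of 0.01. At an unadjusted limma p under 0.05 in either direction stood 3 genes, beside 7.27% of all probe sets. All 3 were lower, beside 3.42% of all probe sets lower at that p. These were Abcd4, a transporter now placed in lysosomes (-0.26, SE 0.10), Dhrs4, a peroxisomal reductase (-0.33, SE 0.136), and Lonp2, the peroxisomal protease (-0.14, SE 0.057), each with limma adjusted p = 0.668. Lonp2 had no overlap, at 8.63 to 8.78 against 8.82 to 8.91, which makes 1 of 21 genes beside 4.25% of all probe sets.

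Peroxin genes build peroxisomes and import their enzymes. Of 12 measured (15 listed), 2 were above and 10 below 0, beside 9996 of all 18782 genes below 0. Their median was -0.08, with 0 at an unadjusted p under 0.05. Their smallest p belonged to Pex10 (-0.29, SE 0.140), Pex11g (-0.21, SE 0.118) and Pex2 (-0.18, SE 0.110). RictoraP2KO replicate 1 had the lowest peroxin mean, -0.26, where the other 7 arrays lay between -0.03 and 0.13. Of 9 regulators of fat oxidation, 1 had an unadjusted p under 0.05, beside 7.27% of all probe sets (3.85% higher), a count near that background. This was Nrip1, a corepressor that restrains oxidative genes, at 6.24 to 6.55 against 5.65 to 5.94 (difference 0.53, SE 0.090; limma adjusted p = 0.4997). Angptl4, a PPAR target that inhibits lipoprotein lipase, differed by -0.28 (SE 0.144) and Esrra, a receptor that drives mitochondrial genes, by -0.19 (SE 0.102). Of the PPAR receptors on this list, Ppara differed by -0.27 (SE 0.148) and Ppard by 0.13 (SE 0.082). Pdk4, a fasting-induced kinase that spares glucose, differed by -0.02 (SE 0.062).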

How the data were processed

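The authors hybridised 1 Affymetrix array per sample from 5 µg of total RNA, per the labels, and deposited log2 values. Per the submitters' processing notes these were made by RMA with Affymetrix Power Tools (version 1.10.2). Sorted arrays differed by at most 0.03 at any rank, so a difference in total RNA would not be seen. The build of the array annotation was not given in the sources used here. Of 28371 probe sets, 21158 had 1 gene symbol, 1881 several and 5332 none, and only those with 1 were named.

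The test was limma's moderated comparison (lmFit and eBayes, version 3.58.1, R 4.3.3), two-sided, with no filter and no covariate, with Benjamini-Hochberg adjustment over all 28371 and a threshold of 0.05. The limma code was tested on simulated data. Members, classes and lists were chosen with earlier results of these data known, so no p is given over the list. Values by array were printed for members with an unadjusted p under 0.05 or no overlap, else for the 3 of smallest p per class, and for Acot1 and Acot2. Acadl, Ehhadh, Acot11, Ucp3 and Abcd2 were added after their values were seen. Replicate numbers did not pair the samples (see the closing section). Promoter windows were aligned with Biopython 1.88 (match 1, mismatch -1, gap -3, extension -1). The number of arrays limits the precision.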

Additional observations from a re-analysis of the deposited data

Results flagged for a closer look

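Within a group of 4 arrays, 1 array stood far from the other 3 in 5 of the 72 groups of values looked at, where chance gives about 1 in 20. Abcd2 read 9.131 in RictoraP2KO replicate 1, and the next array of that group 8.411. Cpt1a read 7.407 in control replicate 1, with the next at 7.081. Acox3 read 7.077 in the same array, below a group that otherwise started at 7.182. Hadh read 11.51 in control replicate 3, the array with neuron signal, and its neighbour 11.69. Etfdh read 10.14 in control replicate 4, with 10.46 next.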

How the results depend on the processing

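The count of members past the adjusted threshold was 0 in each of 20 alternatives, which left out each array in turn or 3 arrays together, or changed the normalisation, the probe set rule, the filter, the variance model, the weights, the block or the threshold. The count at an unadjusted p under 0.05 ran from 0 to 1 when 1 array was left out and was 1 (Acadm, unadjusted p = 0.0367) with limma-trend. The medians and the mitochondrial minus peroxisomal difference moved by less than the spread between replicates in all 16 alternatives. That spread was the SD of class means of single arrays, also for the medians. For the mitochondrial minus peroxisomal difference, leaving out 1 array of a group cannot move it that far. Median centring, a repeated quantile normalisation and the block left these values nearly or fully unchanged by design. So this count does not measure robustness. Without the 3 arrays the peroxisomal median was 0.02. The mitochondrial minus peroxisomal difference turned there from 0.024 to -0.059, beside a spread of 0.086. There Ucp3 turned to 0.084 and Eci2 to 0.024. With 1 array left out Ucp3 ran from -0.21 to 0.19 and Acot1 from -0.26 to 0.51, and the sign turned in 13 of the 32 members. Same-numbered samples did not deviate together (correlations from -0.15 to 0.09 over probe sets). With the replicate block 0 members passed at either threshold (smallest limma adjusted p = 0.851). The block held 1 array of each group per replicate number, so it could not change the medians of -0.01 and -0.08. The cause of these changes was not tested.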
